A study of Bos taurus with 16 samples.

Results

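The insulin-like growth factor (IGF) system was examined in CD14+ cells of pregnant cows through 10 genes, which encode the ligands IGF1 and IGF2, the receptor IGF1R and the binding proteins IGFBP1 to IGFBP7. A probe was taken as a member if its gene name on the array, or the symbol in brackets in its description, was one of these. On an array that carried 20602 gene names, 9 of the 10 genes had a probe, and IGFBP7 was not measured. IGF2 had 2 probes and each of the other genes had 1, so that 10 probes are described. None of the 9 probes that could be tested was differentially expressed between tissues. IGFBP6 and IGFBP3 were higher in endometrial cells in 4 of 4 animals, by 18.0-fold and 11-fold on average, and IGF1, IGFBP4 and IGFBP1 were higher in 3 of 4. In animal 2 the log2 differences of these 5 genes lay between -0.81 and 0.91. For IGFBP3 in that animal the difference was 0.19, and the 2 arrays gave opposite directions. IGF1R, with a mean log2 ratio of 0.08, and IGFBP5, which was not tested, were also higher in 3 of 4.

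IGF1 and IGF2 are small secreted hormones that act through the tyrosine kinase receptor IGF1R to promote growth, survival and differentiation. IGFBPs bind the ligands with high affinity outside the cell, prolong their life and hold them away from the receptor until proteases release them. In the ruminant uterus the IGFs and their binding proteins come from stromal, epithelial and vascular cells as well as from leukocytes, and they are known regulators of placental growth. Macrophages are a known source of IGF1 in tissue repair.

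The cells came from 4 Bos taurus cows killed at day 164 (animal 1), day 239 (animal 2), day 242 (animal 3) and day 248 (animal 4) of pregnancy. For each cow, CD14+ cells were sorted from a collagenase digest of the endometrium between the placentomes and from mononuclear cells of heart blood, and the amplified RNA of both tissues was hybridized together to 2 Agilent bovine arrays with 2 colours. The 16 samples are therefore 4 animals, 2 tissues and 2 technical replicates, and n is 4 animals throughout. Each endometrial sample is a sorted preparation from a single cow at a single time, so that day of pregnancy and animal cannot be told apart.

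Levels below are log2 values of the authors' table, normalized so that all 16 channels hold the same set of values, and averaged over the spots and technical replicates of an animal. A difference of 1 is a 2-fold difference, and a level is read only against the same probe in other samples. A probe is called detected in a channel where the scanner software marked all its spots as well above background. Between 63.1% and 81.5% of the probes of a channel were detected and no spot was saturated. The 2 arrays of an animal differed by a median of 0.08 to 0.37 for each of the 10 probes, and at most by 2.19 for IGFBP5 (not detected, endometrium of animal 3), 1.29 for IGFBP6 (blood of animal 1), 1.1 for IGF1 (not detected, blood of animal 2) and less for the others. The SD of the ratio of endometrium over blood between animals was 0.95 to 3.18.

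The labelled cell type was compared with 10 monocyte and macrophage genes that had a probe. The CD14 probe was detected in all 16 channels, at 16.12 in blood and 14.03 in endometrium of animal 1, and at 5.76 to 8.85 in blood and 6.07 to 9.5 in endometrium of the other animals. Its log2 ratio between tissues was -0.17 (limma adjusted p = 0.919). CD68, CSF1R, CD163, CD74, AIF1 and TYROBP were also detected in every channel, ITGAM in 4 of 8 blood and 2 of 8 endometrial channels, FCGR1A in 2 of 8 blood and 6 of 8 endometrial channels, and both probes for lysozyme (LYZ) in none. The blood preparation of animal 1 stood apart from the other 3 in its markers. CSF1R, the receptor of a macrophage growth factor, was at 14.73 there and at 6.67 to 9.33 in blood of animals 2 to 4. T cell genes ran the other way, with CD3D at 5.40 in blood of animal 1 and at 12.67, 10.35 and 11.43 in animals 2 to 4, and CD3G at 5.74 against 12.39 to 13.65. The blood preparations of animals 2, 3 and 4, labelled CD14+, thus had low CD14 and high CD3D and CD3G beside that of animal 1. In endometrium CD3D was at 6.17, 12.72, 7.02 and 11.82 in animals 1 to 4. The part of these differences in the IGF values was not tested. Without animal 1 no IGF probe was called, with log2 ratios (endometrium over blood) of 2.69 for IGF1, 2.62 for IGFBP1, 1.94 for IGFBP4, 0.81 for IGF1R and -0.07 for IGFBP2, with those of IGFBP3 and IGFBP6 given beside their levels.

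Each gene was measured through a probe of 60 bases, and the sequences show what stands for the gene on the array. Their place in the transcripts was not mapped here. The probes of IGF1R, IGFBP1 and IGFBP2 are given whole, 5′ to 3′. Of the others the first 30 bases are given, and for IGF2 both probes are shown because their values differed.
IGF1, probe A_73_108570: tcttccctgctactctgaaaccagaaaatg
IGF2, probe A_73_104925: aatcatgaacccctcaatcagcccccttga
IGF2, probe A_73_105403: tccaggtcctctttacccaccgcccagggg
IGF1R, probe A_73_118287: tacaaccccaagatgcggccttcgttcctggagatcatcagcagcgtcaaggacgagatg
IGFBP1, probe A_73_110397: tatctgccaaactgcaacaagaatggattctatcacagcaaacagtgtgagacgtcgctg
IGFBP2, probe A_73_103681: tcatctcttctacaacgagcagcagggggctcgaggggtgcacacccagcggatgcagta
IGFBP3, probe A_73_120953: cctcctggagaacacaaagggatctcaaag
IGFBP4, probe A_73_116582: attttttggctcaactggatggacagagac
IGFBP5, probe A_73_103570: aggaaactgaggacctcggaatctctggca
IGFBP6, probe A_73_119197: ccctcacccctggggcctcacatgtggaaa
The G and C content of the whole probes was 35% for IGF1, 43.3% and 55% for the IGF2 probes in the order shown, 45% for IGFBP1, IGFBP3 and IGFBP4, 50% for IGFBP5, 55% for IGF1R and IGFBP6 and 60% for IGFBP2.

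Detection in 4 or more of the 8 channels of either tissue was required for a test, which 16653 of 21475 probes met. The log2 ratio of endometrium over blood within each animal was tested against 0 with limma, and a probe was called differentially expressed where p after Benjamini-Hochberg adjustment was no more than 0.05 and the tissues differed by over 2-fold. By this rule 204 probes (1.23% of those tested) were upregulated in endometrium and 20 (0.12%) were upregulated in blood. Of the 10 IGF probes 9 were tested and 0 were called in either direction. At an unadjusted limma p of at most 0.05 and a fold over 2, 5 of the 9 were higher in endometrium (IGF1, IGFBP1, IGFBP3, IGFBP4 and IGFBP6), against 7.98% of all probes tested, and 0 were higher in blood, against 8.05%. Of these, IGF1 and IGFBP1 met the detection rule through endometrium alone, with 6 of 8 channels each, against 2 and 0 in blood. Their direction in this count is therefore not independent of the filter. A 2-sided exact permutation test over 4 pairs cannot give a p under 0.125, and the spread was therefore pooled over probes. IGFBP6 and IGFBP3 were the members that were higher in endometrium in 4 of 4 animals, as were 9.82% of all probes tested. They were also the members whose tissues did not overlap by the means of technical replicates. Of all probes tested, 2.7% had endometrium above blood without overlap and 3.37% had blood above endometrium. No member was higher in blood in 4 of 4 animals, a pattern that 15.2% of all probes had.

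**Figure D1:**
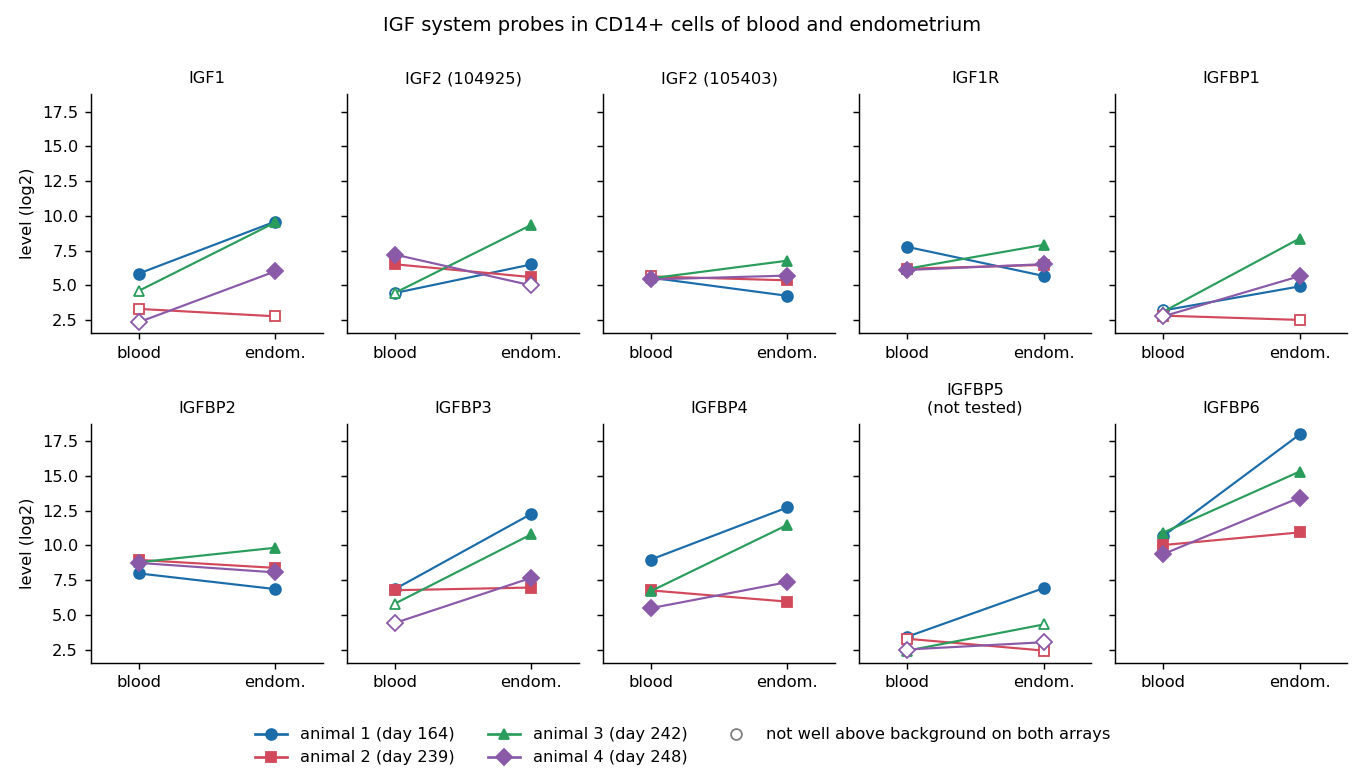
Level (log2) of each of the 10 IGF system probes in blood and endometrial CD14+ cells, with 1 line for each animal; open symbols mark an animal and tissue in which the probe was not detected on both arrays. The lines of animals 1, 3 and 4 climb for IGF1, IGFBP1, IGFBP3, IGFBP4 and IGFBP6, and that of animal 2 stays nearly level.

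Of the ligands, IGF1 is the main mediator of growth hormone action and is also made locally in many tissues. In blood the IGF1 level was 5.85, 3.31, 4.60 and 2.35 in animals 1 to 4, and in endometrium it was 9.59, 2.78, 9.53 and 6.01. Animals 1, 3 and 4 were higher in endometrium and animal 2 was not, and the tissues overlapped. The probe was detected in 6 of 8 endometrial channels, those of animals 1, 3 and 4, and in 2 of 8 blood channels, those of animal 1. The mean was 4.03 ± 1.52 in blood and 6.98 ± 3.26 in endometrium (SD, n = 4). The measured log2 ratio was 2.95 (SE 0.89) and was not called (limma adjusted p = 0.212). No fold is given, because the blood of animals 2, 3 and 4 had no signal well above background. From the scanner's median intensities, corrected for background with an offset of 50 that by construction draws the ratios of dim probes towards 0, the ratio was 1.02 (adjusted p = 0.332). Without animal 2 it was 4.11 and was called (adjusted p = 0.043), and without animal 3 it was 2.29 (adjusted p = 0.478).

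IGF2 is the ligand most abundant in fetal and placental tissue. Its first probe, A_73_104925, had blood levels of 4.45, 6.52, 4.45 and 7.22 and endometrial levels of 6.51, 5.60, 9.35 and 5.0 in animals 1 to 4. Endometrium was higher in animals 1 and 3, and blood in animals 2 and 4. This probe was detected in 4 of 8 blood channels and 6 of 8 endometrial channels. Its log2 ratio was 0.95 (SE 1.13, adjusted p = 0.726), and it was 2.01 without animal 4 and -0.36 without animal 3. The second probe, A_73_105403, had blood levels between 5.43 and 5.65 and endometrial levels of 4.25, 5.37, 6.78 and 5.71. For this probe endometrium was higher in animals 3 and 4, and the log2 ratio was -0.01 (SE 0.56, adjusted p = 0.996). The probes thus gave opposite directions in animals 1 and 4 and the same direction in animals 2 and 3, and no direction is given for IGF2.

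IGF1R, the receptor through which both ligands signal, was detected in all 16 channels. Its level in blood was 7.78, 6.20, 6.20 and 6.11 in animals 1 to 4, and in endometrium it was 5.68, 6.48, 7.92 and 6.53. The blood level of animal 1 lay above those of the other animals, and the tissues overlapped. The log2 ratio was 0.08 (SE 0.67, adjusted p = 0.973), with -2.09 in animal 1 and 0.28, 1.72 and 0.42 in animals 2 to 4. Another probe, for LOC619174, is described on the array as similar to a precursor of the same receptor but does not carry its symbol, and was looked at after the values were seen. Its log2 ratios of -2.48, -0.77, 2.68 and -0.24 averaged -0.20 (SE 0.82, adjusted p = 0.933). Both probes had their lowest ratio in animal 1 and their highest in animal 3.

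The binding proteins that lay highest in endometrium relative to blood were IGFBP6 and IGFBP3. IGFBP6 binds IGF2 in preference to IGF1. Its level was 10.67, 10.03, 10.92 and 9.37 in blood of animals 1 to 4 and 17.98, 10.94, 15.32 and 13.44 in endometrium, and it was detected in all 16 channels. The lowest endometrial level, in animal 2, lay just above the highest blood level, in animal 3. On single arrays the tissues overlapped. Blood of animal 1 was at 11.32 in technical replicate 1, and endometrium of animal 2 was at 10.78 and 11.09 in technical replicates 1 and 2. The log2 ratio was 7.31, 0.91, 4.40 and 4.07 in animals 1 to 4, with a mean of 4.17 (SE 0.96), an 18.0-fold difference. This ratio ranked 151 in absolute size among 16653 probes, but its adjusted p was 0.131. From the scanner's median intensities it was 3.91 (adjusted p = 0.262), and without animal 2 it was 5.26 and was called (adjusted p = 0.043). Without animal 1, whose ratio was the highest, it was 3.12 (adjusted p = 0.259).

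IGFBP3 is the main carrier of IGFs in serum. In blood cells its level was 6.85, 6.78, 5.81 and 4.42 in animals 1 to 4, and in endometrial cells it was 12.27, 6.97, 10.80 and 7.67. The tissues did not overlap, but in animal 2 they differed by 0.19, against 5.42, 4.99 and 3.25 in animals 1, 3 and 4. In animal 2 technical replicate 1 gave 6.98 in endometrium and 7.09 in blood, and technical replicate 2 gave 6.96 and 6.47. The probe was detected in 8 of 8 endometrial and 5 of 8 blood channels, with neither blood channel of animal 4 among them. The log2 ratio was 3.46 (SE 0.89, adjusted p = 0.166), an 11-fold difference that rests in part on undetected blood signal. It was 1.77 from the scanner's median intensities (adjusted p = 0.316) and 4.55 without animal 2, where it was called (adjusted p = 0.042). Without animal 1 it was 2.81 (adjusted p = 0.353) and without animal 3 it was 2.95 (adjusted p = 0.417).

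IGFBP4 inhibits IGF action and is cleaved by the protease PAPPA. Its level was 8.98, 6.77, 6.71 and 5.49 in blood and 12.73, 5.96, 11.48 and 7.36 in endometrium of animals 1 to 4, detected in all 16 channels. Animals 1, 3 and 4 were higher in endometrium, animal 2 was lower by 0.81, and the tissues overlapped. The tissues differed by 2.40 in mean (SE 0.91, adjusted p = 0.273), a 5.26-fold difference, by 1.58 from the scanner's median intensities and by 1.61 without animal 3.

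IGFBP1 is a secreted product of decidual stroma in primates and of endometrial epithelium in ruminants. In blood it was detected in 0 of 8 channels, with levels of 3.20, 2.83, 3.10 and 2.77, and in endometrium the levels were 4.93, 2.52, 8.37 and 5.67 in animals 1 to 4. The probe was detected in both endometrial channels of animals 1, 3 and 4 and in neither of animal 2. The measured log2 ratio was 2.40 (SE 0.88, adjusted p = 0.261). Because the blood level is only a bound, the difference is given as at least 1.56-fold, the endometrial mean over the higher of the probe's own blood level and the lowest detected signal in each blood channel. The endometrial mean includes the undetected signal of animal 2. The log2 ratio was 0.45 from the scanner's median intensities and 1.44 without animal 3.

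IGFBP2, a binding protein of fetal tissues and serum, was the binding protein tested that had a mean ratio below 0. Its level was 7.99, 8.96, 8.79 and 8.75 in blood and 6.86, 8.39, 9.83 and 8.06 in endometrium, detected in all 16 channels. Blood was higher in animals 1, 2 and 4 and endometrium in animal 3. The log2 ratio was -0.34 (SE 0.53, adjusted p = 0.802), with a negative sign under all alternatives tried for this probe. IGFBP5, a binding protein that attaches to extracellular matrix, was not tested. It was detected in 2 of 8 endometrial channels, both of animal 1, where its level was 6.93, and in 0 of 8 blood channels, where it was 2.42 to 3.42. In endometrium of animals 2, 3 and 4 it was 2.44, 4.31 and 3.04.

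**Figure D2:**
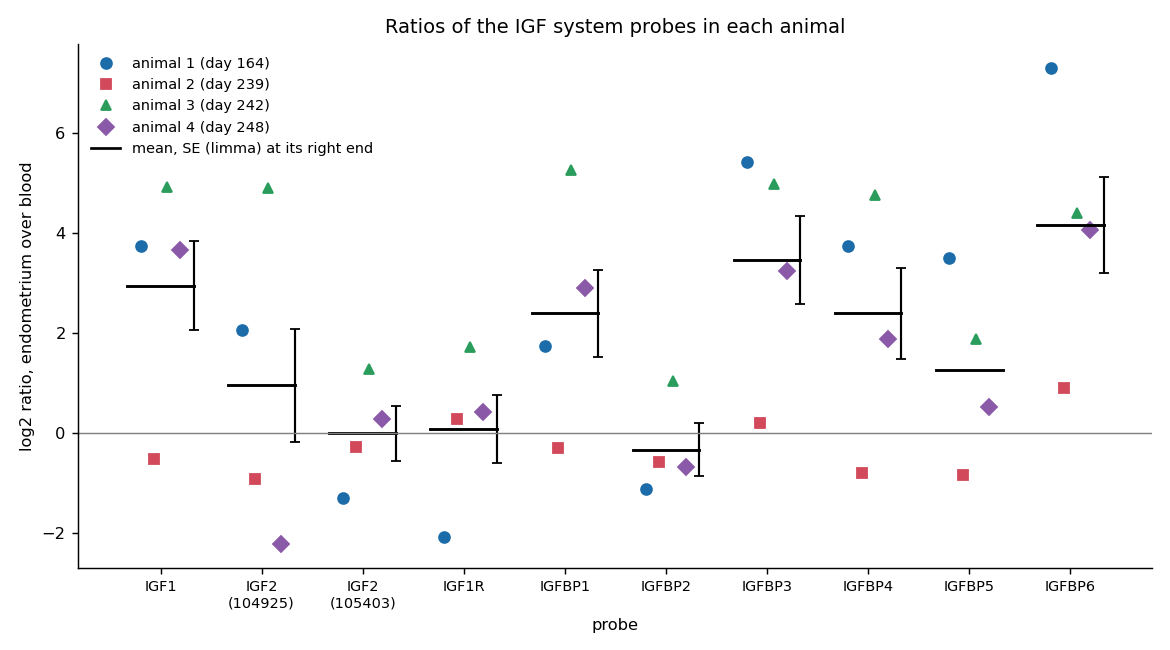
Log2 ratio of endometrium over blood for each IGF system probe, with 1 symbol for each animal, the mean of 4 animals as a horizontal line and the limma SE as an error bar at its right end (none for IGFBP5, which was not tested). Animal 2 lies between -0.93 and 0.91 for every probe, while IGFBP6 in animal 1 reaches 7.31.

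Over the 8 member genes tested, with the brighter IGF2 probe for that gene, the median log2 ratio was 2.40, and over all probes tested it was -0.14. By animal the median of the 8 genes was 2.90, -0.42, 4.83 and 2.38, and the median of all probes was -0.24, -0.10, -0.13 and -0.05. The median over the 5 binding proteins tested was 2.40, which is the ratio of IGFBP1, detected in 0 of 8 blood channels. IGF1 and IGFBP1 met the detection rule through endometrium alone, so that the medians that count them are not independent of the filter. From the scanner's median intensities the median of the 8 genes was 0.73, and without animals 2 or 3 it was 3.38 or 1.52. With detection required in all 8 channels of a tissue, it was 1.24 over the 6 genes that remained.

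Some members varied together over the 8 means of animal and tissue. Pearson's r between levels was 0.963 for IGF1 and IGFBP4, 0.957 for IGFBP3 and IGFBP6, 0.934 for IGFBP3 and IGFBP4, 0.918 for IGF1 and IGFBP6, 0.913 for IGF1 and IGFBP3 and 0.894 for IGFBP4 and IGFBP6. These are descriptions over 8 points that share animals and arrays. IGFBP1 followed them less closely, with r of 0.693 to 0.823, and IGF1R had r of -0.01 to 0.316 with IGF1, IGFBP3, IGFBP4 and IGFBP6. IGFBP2 had negative r with the same 4 genes, from -0.20 with IGF1 to -0.38 with IGFBP6. In a RefSeq gene table of assembly ARS-UCD2.0, IGFBP3 and IGFBP1 are neighbours on chromosome 4, and IGFBP2 and IGFBP5 are neighbours on chromosome 2. The levels of IGFBP1 and IGFBP3 had r of 0.713. Some of the 8 points were undetected on both arrays. For IGF1 these were blood of animals 2, 3 and 4 and endometrium of animal 2. For IGFBP1 they were blood of every animal and endometrium of animal 2, and for IGFBP3 blood of animal 4. The r values of these genes rest in part on such signal.

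Outside the family, the named probes most like IGFBP6 over the same 8 means were SMOC2 (r = 0.967), APCDD1 (r = 0.966) and VAT1 (r = 0.966). Those most like IGFBP3 were LIMA1 (r = 0.976), S100A14 (r = 0.974) and SAT2 (r = 0.969). Those most like IGF1, with its undetected points included, were PRSS11 (r = 0.986), CCL14 (r = 0.985) and TUBB6 (r = 0.976). PRSS11 is the array's name for HTRA1, a secreted serine protease that cleaves IGFBPs, and the value is that of its brighter probe. Of these 9 probes APCDD1 alone was differentially expressed, with a log2 ratio of 3.76 (adjusted p = 0.030).

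Other genes of the pathway were listed by role, 73 in all, of which 62 had a probe. Of their 69 probes 54 were tested, 2 were upregulated in endometrium and 0 in blood, against 1.23% and 0.12% of all probes tested. Both called genes lie outside the cell. STC1, stanniocalcin 1, is a secreted glycoprotein whose family inhibits the pappalysins that cleave IGFBPs. Its level was 3.03, 4.79, 4.55 and 3.72 in blood, detected in 0 of 8 channels, and 8.90, 9.40, 13.40 and 11.54 in endometrium of animals 1 to 4. The tissues did not overlap and the difference was at least 66.0-fold (measured log2 ratio 6.79, SE 0.76, adjusted p = 0.011). ESM1, a proteoglycan of endothelial cells with an amino-terminal IGFBP domain, was at 5.69, 5.77, 6.52 and 4.16 in blood and 10.80, 12.26, 12.42 and 8.86 in endometrium, without overlap. Its log2 ratio was 5.55 (SE 0.50, adjusted p = 0.007). In animal 2 the ratio was 4.61 for STC1, the lowest of the 4 animals, and 6.49 for ESM1, the highest. From the scanner's median intensities neither was called, with ratios of 2.97 (adjusted p = 0.259) for STC1 and 2.97 (adjusted p = 0.207) for ESM1. Neither was called without animal 4, and STC1 was not called without animal 1 either (adjusted p = 0.060, 0.057 and 0.055 in that order). STC1 met the detection rule through endometrium alone, so that its direction in the count is not independent of the filter. With no filter on dim probes it was not called (limma adjusted p = 0.052).

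Among the carrier, proteases and inhibitors, 7 probes of 6 genes were tested and STC1 was the one called. By its brighter probe HTRA1 was at 11.34, 9.72, 11.09 and 9.82 in blood and 15.17, 9.54, 14.66 and 12.06 in endometrium, the same animals being high as for IGF1. The log2 ratio of that probe was 2.36 (SE 0.74, adjusted p = 0.217). The dimmer HTRA1 probe had ratios of 5.86, -2.68, 3.70 and 1.17 in animals 1 to 4, with a mean of 2.01 (SE 1.27, adjusted p = 0.475). PAPPA, the protease of IGFBP4, was detected in 6 of 8 endometrial channels and 1 of 8 blood channels. Its measured log2 ratio of 1.77 (SE 0.60, adjusted p = 0.240) therefore rests on blood signal mostly near background, and it was 0.41 from the scanner's median intensities. In the other proteins with an IGFBP domain, 8 probes of 7 genes were tested. By the brightest probe of each, all 7 genes had a positive mean ratio, and 6 of 7 did without animal 1. Their median was 4.07, against -0.14 over all probes tested, and it was -0.40 in animal 2. The value of 4.07 is that of NOV, which was undetected in blood of animals 3 and 4 and in endometrium of animal 2. WISP2 met the detection rule through endometrium alone, with 4 of 8 channels against 2 of 8 in blood. The dimmer probe of CRIM1 had a mean ratio of -1.1. CTGF and CYR61, matricellular proteins of the CCN family, had log2 ratios of 5.30 (SE 1.32, adjusted p = 0.158) and 4.25 (SE 1.47, adjusted p = 0.245). In animal 2 they were -0.40 and -1.99, and without that animal both were called, at 7.20 and 6.33 (adjusted p = 0.029 for each).

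The signalling side of the pathway had no called probe. Of the receptors and ligands around the IGFs, IGF2R, which clears IGF2, had a mean ratio of -0.50 (SE 0.47, adjusted p = 0.638). INSR, the insulin receptor, had 0.26 (SE 0.76, adjusted p = 0.903), and insulin itself, INS, had -0.08 (SE 0.52, adjusted p = 0.960). Of the IGF2 mRNA-binding proteins IGF2BP3 alone was tested, with 1.78 (SE 0.67, adjusted p = 0.272), or 0.64 from the scanner's median intensities and 1.04 without animal 4. The 28 adaptor and kinase genes tested had a median of -0.07, with 12 of them above 0. Once each animal's ratios were centred on their median, the median of these genes was 0.06, with 15 above 0. Among those far from 0 were PTPN1, a phosphatase that acts on the insulin and IGF receptors, at -2.18 (SE 0.71, adjusted p = 0.229) and the adaptor GRB2 at -1.62 (SE 0.56, adjusted p = 0.247). For GRB2 blood lay above endometrium without overlap. All 4 transcription factors tested were lower in endometrium in 4 of 4 animals by their brightest probe, as were 15.2% of all probes tested, with a median of -1.18 and 0 called. From the scanner's median intensities the median was -0.56. STAT5B, which carries the growth hormone signal to IGF1, had a ratio of -1.83 (SE 0.45, adjusted p = 0.153), and FOXO3, which is held out of the nucleus by AKT, had -1.07 (SE 0.48, adjusted p = 0.327). STAT5B was called in the fit of all 8 arrays with a dye term (adjusted p = 0.043). FOXO4 was detected in 0 of 8 endometrial channels and in neither tissue of animals 2 and 3, so that its sign there compares undetected signals. No fold is given for FOXO4, whose measured log2 ratio was -1.28 (SE 0.49, adjusted p = 0.276), or -0.10 from the scanner's median intensities.

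**Figure D3:**
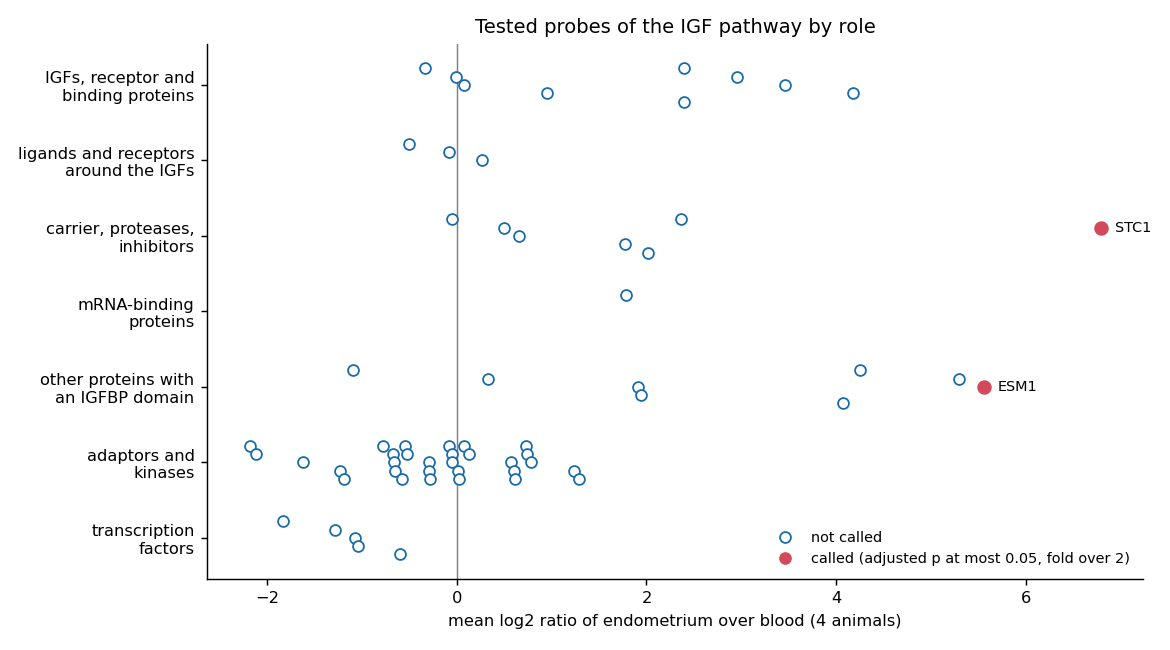
Mean log2 ratio of endometrium over blood in 4 animals for each tested probe of the IGF system (top row) and of the other pathway genes by role, with called probes filled and named. The called probes are STC1 and ESM1, and the binding proteins and proteins with an IGFBP domain reach further to the right than the adaptors, kinases and transcription factors.

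Genes that mark other cell types also differed between the sorted preparations, and their part in the IGF values was not tested. In these bulk samples more cells of a type and more RNA per cell cannot be told apart. Of the stroma list 15 genes were tested, 15 had a positive mean ratio and 3 were called (COL3A1, DCN and MFAP5). Over all probes tested, 1.23% were called higher in endometrium. COL3A1, COL5A1, LUM and THY1, detected in 2 or 3 of 8 blood channels, met the detection rule through endometrium alone. Their direction is therefore not independent of the filter. Without animal 1, 13 of the 15 genes were positive and 0 were called. The median of the 15 genes was 5.31, 0.04, 2.63 and 3.00 in animals 1 to 4. Their summed level was 9.66 to 12.78 in blood and 10.69 to 18.63 in endometrium, and of the defining collagens COL1A1, COL1A2 and COL3A1 were detected in 6 to 8 of 8 endometrial channels by their brightest probe. A dimmer COL1A2 probe was detected in 0 of 16 channels. COL5A1 was detected in 4 and COL6A3 in 2 of 8 endometrial channels. A dimmer DCN probe was not called, with a log2 ratio of 2.83 (limma adjusted p = 0.322). Epithelium genes had medians of 3.00, 3.23, 4.48 and 1.91, with 13 of 13 above 0, 7 called and summed levels of 10.47 to 13.14 in blood and 13.47 to 17.56 in endometrium. Trophoblast genes had 4.81, 5.21, 5.24 and 5.18, with 7 of 7 above 0, 6 probes called and summed levels of 10.42 to 11.77 in blood and 15.51 to 17.27 in endometrium. PAG2, TKDP1 and GCM1 of that list were detected in 0 of 16 channels. KRT7, ESRP1 and PAG11 were detected in 1 or 2 of 8 blood channels and also met the detection rule through endometrium alone. From the scanner's median intensities 0 stroma, 0 epithelium and 5 trophoblast genes were called by their brightest probes. Without animal 4, 0 genes of each of these lists were called. In animal 2 the median of the IGF genes was -0.42, beside 0.04 for stroma, 3.23 for epithelium and 5.21 for trophoblast. In the same animal it was -0.55 for endothelium, -0.12 for smooth muscle and pericyte, 0.95 for T and natural killer cells and 0.31 for monocyte and macrophage genes.

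The remaining lists had no called probe. Endothelium genes had medians of 2.35, -0.55, 2.07 and -0.34 over 10 genes, with summed levels of 11.74 to 12.58 in blood and 12.10 to 14.64 in endometrium. Smooth muscle and pericyte genes had 1.57, -0.12, -0.66 and 0.18 over 5 genes, with 8.97 to 9.58 and 9.01 to 11.51. T and natural killer cell genes had 2.33, 0.95, 0.50 and -0.24 over 9 genes, with 12.99 in blood of animal 1, 15.85 to 16.82 in blood of the others and 15.81 to 18.14 in endometrium. Monocyte and macrophage genes had 0.56, 0.31, 3.48 and 2.81 over 9 genes, with 18.49 in blood of animal 1, 14.98 to 16.09 in blood of the others and 15.19 to 18.60 in endometrium.

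**Figure D4:**
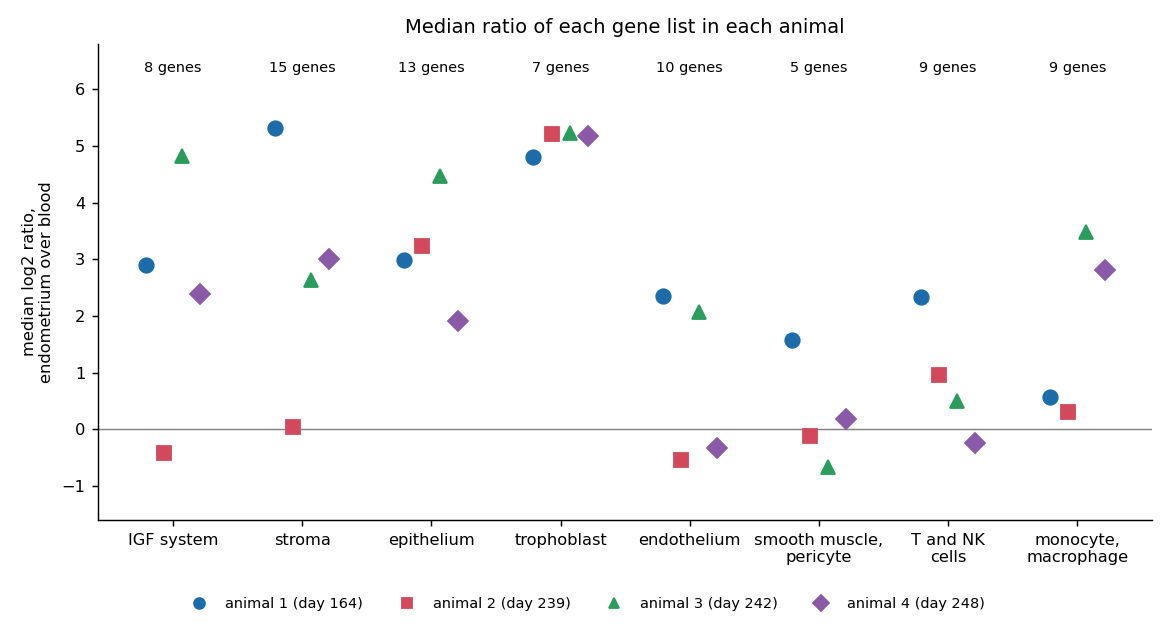
Median log2 ratio of endometrium over blood in each animal for the 8 IGF system genes tested and for 7 lists of cell type markers, with the number of genes tested above each. Animal 2 is at -0.42 for the IGF system, 0.04 for stroma, 3.23 for epithelium and 5.21 for trophoblast. It is at -0.55 for endothelium, -0.12 for smooth muscle and pericyte, 0.95 for T and natural killer cells and 0.31 for monocytes and macrophages.

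The ratios of most members depended on how the intensities were taken. With the scanner's processed signal, without quantile normalization, the member ratios moved by at most 0.12. With the median intensities and an offset of 50, the ratios of IGF1, the first IGF2 probe, IGFBP1, IGFBP2, IGFBP3 and IGFBP4 were over 1.5 times smaller in size and the second IGF2 probe turned its sign, while IGFBP6 moved from 4.17 to 3.91.

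**Figure D5:**
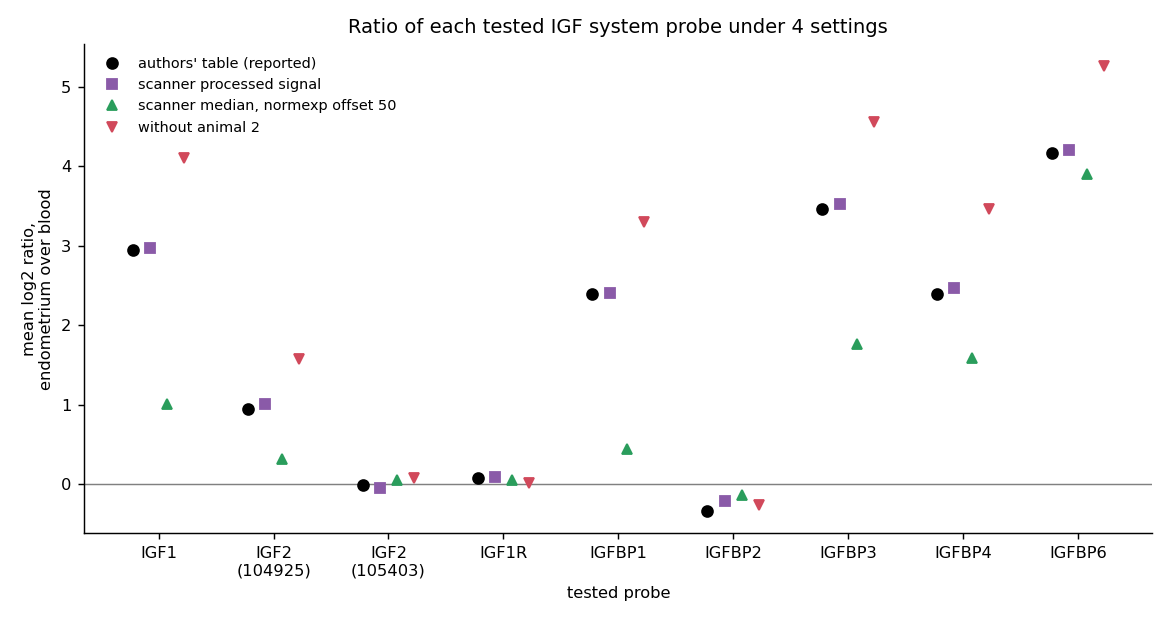
Mean log2 ratio of endometrium over blood of the 9 tested IGF system probes from the authors' table, from the scanner's processed signal, from its median intensities with a background offset of 50, and from the authors' table without animal 2. IGF1 falls from 2.95 to 1.02 and IGFBP1 from 2.40 to 0.45 with the median intensities. IGF1, both IGF2 probes, IGFBP1, IGFBP3, IGFBP4 and IGFBP6 are highest without animal 2.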

How the data were processed

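RNA of CD14+ cells from endometrium and blood of 4 pregnant cows was compared on 8 arrays with 2 colours, and both tissues of an animal shared each array, with the dyes exchanged between its arrays except in animal 3. The authors' table holds log2 values, with lowess applied within each array and quantile normalization over the 16 channels. The deposited scanner files give median and processed intensities of each dye, from Agilent Feature Extraction 10.5.1.1 per the file headers and 9.5 per the labels. By the ranks of the processed intensity, each column of the table matched the stated dye at 100% of probes (tolerance 0.001), but in the scanner file of the animal's other technical replicate, and the files were read in that way.

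Member values were taken from the authors' values. Spots and technical replicates were averaged, and limma 3.58.1 in R 4.3.3 (statmod 1.5.0, version 1.17.8 of data.table) tested the paired log2 ratios of 4 animals. Both tissues of an animal come from the same cow, which gives the pairing, and their deviations from the tissue means had r of 0.628, 0.372, 0.239 and 0.452. The script was tested on simulated data. Named were all member probes, every called pathway probe, up to 3 tested genes of each role with the largest absolute ratio, and the 3 named probes most like each of the 3 members farthest from 0. A result that the rule selects is not reported here. The members and lists were chosen with earlier results of these data known. A probe that the reference table names PAG1 was left out of the trophoblast list because its description names another gene, and CSH1 and CSH2 share a probe. The number of arrays limits precision. The qPCR and the flow cytometry were not analysed here.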

Additional observations from a re-analysis of the deposited data

Results flagged for a closer look

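The level of IGF1R in blood cells of animal 1 stood apart from those of the other animals. It was 7.78 on the log2 scale, while animals 2, 3 and 4 lay between 6.11 and 6.20, so that the gap to the nearest animal was 0.945 of the whole range, above Dixon's critical value for 4 samples. It was the only one of 27 groups of 4 values examined that passed, and chance flags about 1 in 20 such groups. The same preparation also differed from the blood of the other animals in cell markers, with CD14 at 16.12 against 5.76 to 8.85, CD3D at 5.40 against 10.35 to 12.67, KLRD1 at 5.14 against 11.22 to 12.35 and COL1A2 at 9.28 against 4.74 to 5.48. The part of these markers in the IGF1R level was not tested.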

How the results depend on the processing

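The count of 0 called member probes held under the other tests and scalings, but became 5 where p was not adjusted and ranged from 0 to 3 when an animal was left out (3 without animal 2, namely IGF1, IGFBP3 and IGFBP6). Over the whole array 224 probes were called, and 11 from the scanner's median intensities, 123 with no filter on dim probes, 38 with no replicate block, 58 at the stricter adjusted p of 0.01, 2670 with p not adjusted, 0 by the methods' analysis of variance after adjustment, and 0 to 180 without 1 animal (0 without animal 4). Of the pathway probes 2 were called, and the count was 0 from the scanner's median intensities, 1 with no filter, 1 with no replicate block, 1 at the stricter p, 16 with p not adjusted, 0 by the analysis of variance, 3 in the fit of all 8 arrays and 0 to 5 without 1 animal. With the pairing dropped no member was called. The median of all probes was -0.14, and -0.02 from the median intensities. The sign turned for the second IGF2 probe with the median intensities (0.049), with centred ratios (0.122), in the fit of all 8 arrays (0.088) and with technical replicate 1 (0.369), and for INS in the same order (0.0060, 0.047, 0.017 and 0.218). Without 1 animal the log2 ratio ranged from -0.36 to 2.01 for the first IGF2 probe, from -0.44 to 0.42 for the second, from -0.47 to 0.81 for IGF1R, from -0.44 to 0.28 for INS and from -0.62 to 0.89 for INSR. With all 8 channels of a tissue required to be well above background, IGF1, IGFBP1 and the first IGF2 probe were not tested. The causes of these changes were not tested. IGFBP1 and IGFBP5 were not well above background in blood, where their levels are bounds.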
